A study of Homo sapiens with 6 samples.

Results

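The RNAs described here encode 9 enzymes of serine synthesis and of the folate one-carbon pathway, namely PHGDH, PSAT1, PSPH, SHMT1, SHMT2, MTHFD1, MTHFD1L, MTHFD2 and MTHFD2L. They were taken by gene name from the deposited table of 62754 genes, and each name matched 1 row. FOLFIRINOX cells were HPNE-hTERT cells treated, to induce senescence, for 4 days with SN-38 at 25 nM, oxaliplatin at 5 µM and 5-fluorouracil at 10 µM. Vehicle cells were the same line given DMSO for 4 days. Each group had 3 RNA sequencing libraries of polyadenylated RNA, named P14, P15 and P19 in each group. HPNE-hTERT is 1 non-malignant human line, labelled as pancreatic ductal epithelium and kept growing by telomerase, so the libraries sample 1 genetic background. SN-38 is the active form of irinotecan, a topoisomerase I inhibitor, oxaliplatin binds DNA, and 5-fluorouracil blocks thymidylate synthase, which draws its methyl group from folate. Whether each library is a culture of its own is not labelled. The p-values therefore cover the spread among these libraries, which may be technical.

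Serine is built from the glycolytic intermediate 3-phosphoglycerate by PHGDH, PSAT1 and PSPH in turn. SHMT enzymes then split serine into glycine and a one-carbon unit carried on tetrahydrofolate, SHMT1 in the cytosol and nucleus and SHMT2 in mitochondria. MTHFD enzymes interconvert the carried forms, so that mitochondria can release formate and the cytosol can use it for purines, thymidylate and methionine. Dividing cells draw heavily on this pathway, and the transcription factor ATF4 is known to activate PHGDH, PSAT1, SHMT2 and MTHFD2.

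Stretches of 250 bases before the annotated starts are shown for 4 genes whose RNAs each fell, SHMT1, PHGDH, PSAT1 and MTHFD2. MTHFD1L, whose RNA was not called as changed, is shown too. The windows of MTHFD1, whose RNA also fell, and of MTHFD2L are not shown, and none was available for SHMT2 and PSPH. Sequences are from RefSeq on GRCh38.p14, written 5′ to 3′ on the strand of the gene. Capitals mark matches, on either strand, to CCAAT (bound by NF-Y in many promoters), CACGTG (the E-box bound by MYC and related factors) and TGATGNAA (the composite element bound by C/EBP and ATF4 proteins).
SHMT1, chr17:18363551-18363800, minus strand: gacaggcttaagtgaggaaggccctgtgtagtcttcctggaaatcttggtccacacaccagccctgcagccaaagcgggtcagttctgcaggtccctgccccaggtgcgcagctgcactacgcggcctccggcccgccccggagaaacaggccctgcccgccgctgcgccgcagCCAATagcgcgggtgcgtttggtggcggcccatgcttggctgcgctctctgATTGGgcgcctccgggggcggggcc
PHGDH, chr1:119711684-119711933, plus strand: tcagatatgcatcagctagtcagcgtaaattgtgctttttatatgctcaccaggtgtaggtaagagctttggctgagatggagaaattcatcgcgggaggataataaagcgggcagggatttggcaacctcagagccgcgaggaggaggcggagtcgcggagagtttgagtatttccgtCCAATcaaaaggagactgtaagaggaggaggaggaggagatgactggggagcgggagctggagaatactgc
PSAT1, chr9:78296875-78297124, plus strand: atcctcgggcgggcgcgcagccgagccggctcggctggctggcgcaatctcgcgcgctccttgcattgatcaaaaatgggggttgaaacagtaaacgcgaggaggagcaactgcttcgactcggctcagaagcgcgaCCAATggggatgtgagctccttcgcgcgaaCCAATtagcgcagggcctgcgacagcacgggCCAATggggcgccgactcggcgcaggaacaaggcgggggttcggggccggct
MTHFD2, chr2:74198365-74198614, plus strand: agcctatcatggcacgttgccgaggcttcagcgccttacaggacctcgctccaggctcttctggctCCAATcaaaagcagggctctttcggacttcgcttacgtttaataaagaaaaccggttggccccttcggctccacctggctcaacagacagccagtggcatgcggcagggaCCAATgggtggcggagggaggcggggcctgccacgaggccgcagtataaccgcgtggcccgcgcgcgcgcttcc
MTHFD1L, chr6:150866236-150866485, plus strand: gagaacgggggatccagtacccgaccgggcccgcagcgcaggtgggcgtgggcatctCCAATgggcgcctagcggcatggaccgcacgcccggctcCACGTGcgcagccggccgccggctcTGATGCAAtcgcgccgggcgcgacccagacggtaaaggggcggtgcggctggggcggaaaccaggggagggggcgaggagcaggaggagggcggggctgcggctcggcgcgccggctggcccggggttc
CCAAT stood in 8 of the 11 RefSeq windows of the 7 members with a window, and in 32.0% of 35116 such windows of all genes. Overlapping windows of MTHFD1L hold the same CCAAT, which is thus counted more than once among the 8. The 6 members with CCAAT in at least 1 window were PHGDH, PSAT1, SHMT1, MTHFD1, MTHFD1L and MTHFD2. PSAT1 had 3, the nearest beginning 52 bases before the start, and SHMT1 and MTHFD2 had 2 each. MTHFD2L had none in either of its windows. CACGTG was found in 3 of the 11 windows, before MTHFD1 and MTHFD1L, and in 6.34% of all windows. The MTHFD1L windows among these overlap and hold the same CACGTG. TGATGNAA was found in 2 of the 11, overlapping windows of MTHFD1L that hold the same match, and in 3.14% of all windows. TTTCCCGC and TTTGGCGC, forms of the site bound by E2F factors, were in 0 of the 11 and in 1.39% and 0.55% of all windows. Such matches describe letters within these windows and do not show that a factor binds there.

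Gene counts summed to 83981154 to 91992824 reads in FOLFIRINOX libraries and to 86435436 to 97762802 in vehicle libraries. Values below are the authors' normalized read counts, with mean ± SD and n = 3 per group, and log2 differences are FOLFIRINOX minus vehicle on log2(value + 1). The log2 difference of CDKN1A, the gene of p21, a brake on the cell cycle, was 3.22 (limma adjusted p = 7.4e-07), and that of MKI67, a marker of dividing cells, was −8.78 (3.4e-09). Of the 10 ductal markers 6 reached 10 in at least 3 libraries, but KRT19, EPCAM and CFTR each averaged under 10 in both groups, so the ductal label rests on part of the list. The summed ductal markers were 8966 to 9959 in FOLFIRINOX and 11979 to 14439.7 in vehicle, and the 7 mesenchymal and progenitor markers 2454939 to 2956849 in FOLFIRINOX and 3360921 to 4972532 in vehicle. KRT18, with means of 7148 in FOLFIRINOX and 9901 in vehicle, made up most of the ductal sum, and FN1 most of the other. Some markers on each list went the other way. CDH1 averaged 64.5 in FOLFIRINOX and 51.1 in vehicle, and CD44 78501 and 69718, neither of them called. The 5 acinar and 5 endocrine markers summed to at most 26.5 in any library, the 4 immune markers to 12.3 to 53.2 in FOLFIRINOX and 6.37 to 14.95 in vehicle, and the 4 endothelial markers to at most 44.6. Mitochondrial ribosomal RNA took 1.18% to 2.74% of reads in FOLFIRINOX and 0.552% to 0.864% in vehicle, highest in P14 of each group. The part of these differences in the results below was not tested.

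FOLFIRINOX-treated cells held less RNA of 7 of the 9 enzymes, and no member was called higher. SHMT1 was the lowest at 10.1% of its vehicle mean, followed by PHGDH at 19.05%, SHMT2 at 29.2%, PSAT1 at 42.5%, MTHFD2 at 46.3%, MTHFD1 at 54.1% and PSPH at 67.1%. MTHFD1L and MTHFD2L, at 87.0% and 97.5%, did not pass the test. Calls are at limma adjusted p under 0.05 over all 17951 genes tested, a rule that called 12.2% of those genes lower and 11.4% higher. The members' median log2 difference was −1.12, against 0.02 over all genes tested. All 9 members passed the filter on low values. Libraries of the groups did not overlap for 8 of the 9 members, with FOLFIRINOX lower, as was so for 19.6% of the genes tested. With libraries paired by P number (replicate block) the same 7 members were called, among 21.8% of genes called lower. In these bulk samples, fewer cells holding an RNA and less RNA per cell cannot be told apart.

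**Figure D1:**
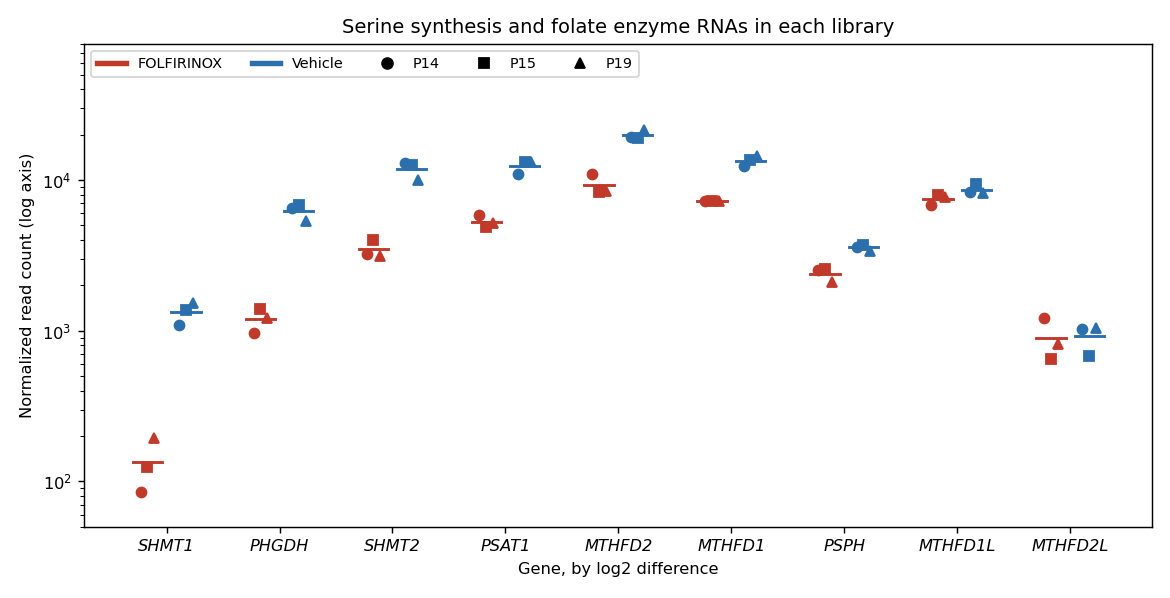
Normalized read count (log axis) of the 9 enzyme RNAs in each library, FOLFIRINOX left of vehicle for each gene, with symbols for P14, P15 and P19 and bars at the group means (n = 3). SHMT1 lies between 85.4 and 193 in FOLFIRINOX and between 1097 and 1523 in vehicle, while the MTHFD2L libraries of both groups overlap.

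All 3 serine synthesis RNAs fell, with estimates of −2.40, −1.23 and −0.58 on the log2 scale from the first step of the pathway to the last. PHGDH (ENSG00000092621; GRCh38 chromosome 1, 119648411 to 119744226) encodes phosphoglycerate dehydrogenase, which commits carbon to the pathway. It had 970.1, 1385 and 1208 normalized reads in FOLFIRINOX P14, P15 and P19, while vehicle P14, P15 and P19 had 6479, 6879 and 5351. Every FOLFIRINOX library was far below every vehicle library, and P14, the lowest treated library, was not the lowest vehicle one. Its log2 difference was −2.40 ± 0.18 (SE; limma adjusted p = 5.3e-06), with −2.74, −2.31 and −2.15 within P14, P15 and P19.

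PSAT1 (ENSG00000135069; chromosome 9, 78297143 to 78330093) encodes the aminotransferase of the middle step. It had 5849, 4865 and 5163 normalized reads in FOLFIRINOX P14, P15 and P19, while vehicle P14, P15 and P19 had 11047, 13138 and 13131. The groups were well apart, with P14 the highest treated library and the lowest vehicle one. Set against vehicle, PSAT1 differed by −1.23 ± 0.16 on the log2 scale (adjusted p = 2.5e-04), and by −0.92, −1.43 and −1.35 within P14, P15 and P19.

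PSPH (ENSG00000146733; chromosome 7, 56011051 to 56051604, minus strand) encodes the phosphatase that releases serine. It had 2534, 2561 and 2098 normalized reads in FOLFIRINOX P14, P15 and P19, while vehicle P14, P15 and P19 had 3591, 3725 and 3407. The groups did not overlap, but the lowest vehicle library stood nearer to the highest treated one, as a ratio, than for the other 6 called members. The log2 difference of PSPH was −0.58 ± 0.16 (adjusted p = 0.0215), −0.50 to −0.70 within P numbers. PSPH no longer passed when FOLFIRINOX P19 was left out (adjusted p = 0.13), nor without vehicle P14 (0.0540), without vehicle P15 (0.0789) or with neither P14 library (0.0705). It also did not pass with scaling to a common total (−0.47, adjusted p = 0.0654).

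Both serine hydroxymethyltransferase RNAs fell, to 10.1% of the vehicle mean for the cytosolic SHMT1 and to 29.2% for the mitochondrial SHMT2. SHMT1 (ENSG00000176974; chromosome 17, 18327860 to 18363563, minus strand) had 85.4, 124 and 193 normalized reads in FOLFIRINOX P14, P15 and P19, while vehicle P14, P15 and P19 had 1097, 1381 and 1523. P14 was the lowest library and P19 the highest in both groups, and the groups stood far apart. Its log2 difference was −3.37 ± 0.28 (adjusted p = 1.0e-05), a 10.3-fold difference with a 95% interval of 6.72 to 15.9, and −3.67, −3.47 and −2.97 within P14, P15 and P19. The treated values rest on 83 to 207 reads, the fewest behind any member, and their SD was 40.8% of the mean. SHMT1 ranked 153 from the lowest log2 difference among the 17951 genes tested, and PHGDH ranked 273.

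SHMT2 (ENSG00000182199; chromosome 12, 57229327 to 57234935) had 3254, 4009.7 and 3129 normalized reads in FOLFIRINOX P14, P15 and P19, while vehicle P14, P15 and P19 had 13025, 12546 and 10032. No treated library came near a vehicle one, and P19 was the lowest library of each group. Its log2 difference was −1.78 ± 0.17 (adjusted p = 3.0e-05), −1.65 to −2.00 within P numbers.

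Of the 4 MTHFD genes, the cytosolic MTHFD1 and the mitochondrial MTHFD2 fell, and MTHFD1L and MTHFD2L did not pass the test. MTHFD1 (ENSG00000100714; chromosome 14, 64388031 to 64463457) encodes the cytosolic protein that joins dehydrogenase, cyclohydrolase and formyltetrahydrofolate synthetase activities. It had 7284, 7306 and 7260.0 normalized reads in FOLFIRINOX P14, P15 and P19, while vehicle P14, P15 and P19 had 12317, 13664 and 14399.8. The SD of the treated libraries was 0.319% of their mean and that of the vehicle libraries 7.85%, with the groups far apart. MTHFD1 differed by −0.88 ± 0.14 on the log2 scale (adjusted p = 0.0014), −0.76 to −0.99 within P numbers.

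MTHFD2 (ENSG00000065911; chromosome 2, 74198562 to 74217565) encodes the mitochondrial dehydrogenase and cyclohydrolase of proliferating cells. It had 10935, 8358 and 8405 normalized reads in FOLFIRINOX P14, P15 and P19, while vehicle P14, P15 and P19 had 19322, 19148 and 21380.5. The highest treated library, P14, was still well under the lowest vehicle one. The estimate for MTHFD2 was −1.12 ± 0.16 on the log2 scale (adjusted p = 5.9e-04), −0.82 within P14 and −1.20 and −1.35 within P15 and P19. Exons of SLC4A5 and another gene on the opposite strand cover 33.2% of its exonic bases in GENCODE 29, so with the strand setting unknown their reads cannot be told apart there.

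MTHFD1L (ENSG00000120254; chromosome 6, 150865549 to 151101887) encodes the mitochondrial formyltetrahydrofolate synthetase that releases formate. It had 6863, 8007 and 7723 normalized reads in FOLFIRINOX P14, P15 and P19, while vehicle P14, P15 and P19 had 8325, 9453 and 8185. The groups just failed to touch, the highest treated library being P15 and the lowest vehicle library P19. Its log2 difference was −0.20 ± 0.15 (95% interval −0.53 to 0.13, adjusted p = 0.366), −0.28, −0.24 and −0.08 within P14, P15 and P19.

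MTHFD2L (ENSG00000163738; chromosome 4, 74114174 to 74303099) encodes the mitochondrial paralog of MTHFD2 that is also made in adult tissues. It had 1219, 646 and 819 normalized reads in FOLFIRINOX P14, P15 and P19, while vehicle P14, P15 and P19 had 1032, 681 and 1040.2. The groups overlapped, P15 was lowest in both, and the sign differed between P numbers (0.24, −0.08 and −0.34). The log2 difference was −0.06 ± 0.26 (95% interval −0.63 to 0.51, adjusted p = 0.890), and −0.27 with adjusted p = 0.0413 with P numbers as a replicate block after removing GC trends, a fit that called 26.7% of genes lower.

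**Figure D2:**
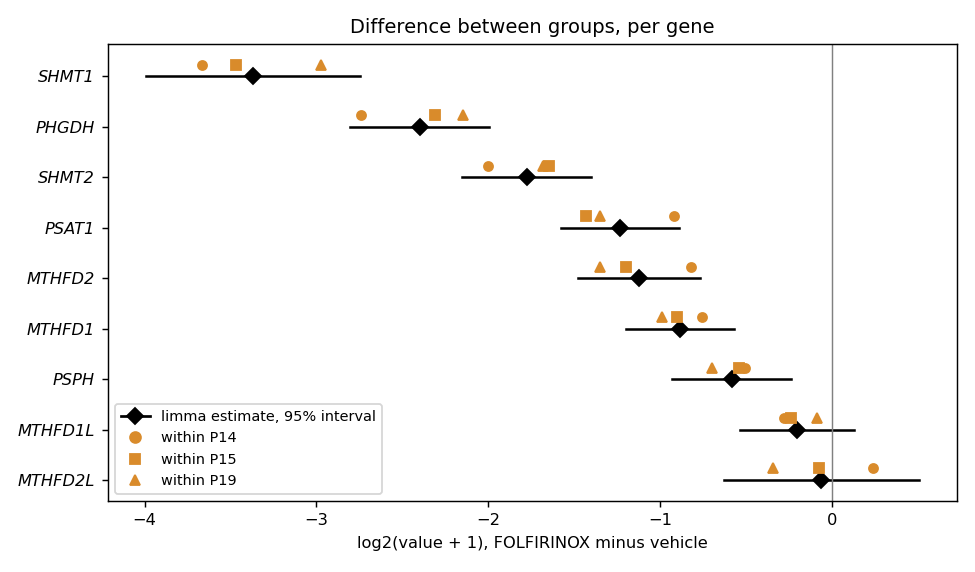
Log2 difference of log2(value + 1), FOLFIRINOX minus vehicle, for each of the 9 genes: diamonds are limma estimates with 95% intervals (n = 3 per group), and smaller symbols are the differences within P14, P15 and P19. The intervals of MTHFD1L (−0.53 to 0.13) and MTHFD2L (−0.63 to 0.51) include 0, and the other 7 lie wholly below it.

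In the authors' deposited table the same 7 members were lower at adjusted p under 0.05, as were 9.89% of genes there, with log2 fold changes of −3.31 for SHMT1, −2.39 for PHGDH, −1.78 for SHMT2, −1.23 for PSAT1, −1.11 for MTHFD2, −0.89 for MTHFD1 and −0.58 for PSPH. Pseudogenes named after these genes took few reads, and reads that they may share with the parent genes were not examined. The table lists 14 pseudogenes named after PSAT1, PSPH, SHMT1, MTHFD1 or MTHFD2, whose group means summed to 27.7 normalized reads in FOLFIRINOX and 39.7 in vehicle. Exons of other genes cover 3.69%, 9.51%, 11.04% and 1.77% of the exonic bases of SHMT1, SHMT2, MTHFD1 and MTHFD2L, and none of those of PHGDH, PSAT1, PSPH or MTHFD1L.

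To compare levels between genes, group means were divided by the length of the principal transcript in GENCODE 29, as normalized reads per kilobase. In FOLFIRINOX cells PSAT1 stood highest at 2419 ± 231 per kilobase, with MTHFD1 at 2323 ± 7.40, MTHFD1L at 2089.6 ± 165 and MTHFD2 at 2072 ± 331. MTHFD2 libraries overlapped with those of PSAT1, of MTHFD1 and of MTHFD1L, and PSAT1 libraries with those of MTHFD1. Each MTHFD1 library was above all MTHFD1L libraries. SHMT2 followed at 1365 ± 188, PSPH at 1101 ± 119, PHGDH at 459 ± 80.5, MTHFD2L at 389 ± 128 and SHMT1 at 54.5 ± 22.2. Of these, PHGDH and MTHFD2L overlapped, and each of the others was apart from its neighbours.

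In vehicle cells PSAT1 also stood highest, at 5685 ± 551 per kilobase, followed by SHMT2 at 4678 ± 634, MTHFD2 at 4477 ± 279 and MTHFD1 at 4292 ± 337. Each of these 4 overlapped with the next in order. PHGDH at 2412 ± 307 and MTHFD1L at 2401 ± 193 overlapped too, as did SHMT1 at 541 ± 88.1 and MTHFD2L at 399 ± 89.1, with PSPH at 1641 ± 73.4 apart from all. PHGDH was thus above PSPH in vehicle cells and below it in FOLFIRINOX cells. As a share of the summed per-kilobase level of the 3 serine synthesis RNAs, PHGDH made up 8.91%, 13.6% and 12.3% in FOLFIRINOX P14, P15 and P19, and 27.2%, 25.6% and 21.5% in vehicle. The 4 mitochondrial RNAs made up 72.4%, 71.5% and 70.1% of the summed folate enzyme level in FOLFIRINOX and 73.7%, 71.2% and 68.8% in vehicle, with both groups overlapping. Levels per kilobase depend on which transcript is used. Over all annotated exonic bases, PHGDH came to 129 in FOLFIRINOX and 677 in vehicle, below PSPH in both groups.

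Ratios of 2 RNAs within a library do not depend on how libraries are scaled, so they set the sizes of the members' differences side by side. The 6 pairs were compared over the libraries by a two-sided exact permutation test, in which 3 against 3 cannot give a p below 0.10. The SE of each difference treats the libraries as unpaired. Taken within P numbers, the differences had an SD from 0.06 (MTHFD2 over MTHFD2L) to 0.57 (PHGDH over PSAT1). For PHGDH over PSPH, the log2 ratio was −1.02 ± 0.32 in FOLFIRINOX and 0.80 ± 0.13 in vehicle, a difference of −1.82 ± 0.20 (SE), and for PHGDH over PSAT1 it was −2.17 ± 0.39 in FOLFIRINOX and −0.999 ± 0.27 in vehicle, a difference of −1.17 ± 0.28. SHMT2 over SHMT1 was 4.75 ± 0.65 in FOLFIRINOX and 3.16 ± 0.43 in vehicle, a difference of 1.59 ± 0.45. MTHFD1L over MTHFD1 was 0.05 ± 0.12 in FOLFIRINOX and −0.64 ± 0.15 in vehicle, a difference of 0.68 ± 0.11. MTHFD2 over MTHFD2L was 3.40 ± 0.27 in FOLFIRINOX and 4.47 ± 0.31 in vehicle, a difference of −1.06 ± 0.23 that was alike in all P numbers (−1.06, −1.12 and −1.002).

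Libraries of the groups did not overlap for these 5 ratios (exact permutation p = 0.10 each, the smallest possible, and 0.12 after Benjamini-Hochberg adjustment over the 6 pairs). MTHFD2 over MTHFD1, the mitochondrial and the cytosolic dehydrogenase, was 0.33 ± 0.22 in FOLFIRINOX and 0.57 ± 0.08 in vehicle. This difference of −0.24 ± 0.14 had overlapping groups (exact permutation p = 0.30, adjusted 0.30) but was below 0 within every P number (−0.06, −0.29 and −0.36). With libraries paired by P number, an exact sign-flip permutation test gave p = 0.25 for each of the 6 ratios, the smallest it can give. SHMT2 over SHMT1 per kilobase was 36.6, 31.2 and 15.6 in FOLFIRINOX P14, P15 and P19, while vehicle P14, P15 and P19 had 11.5, 8.81 and 6.39, higher in FOLFIRINOX within every P number.

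**Figure D3:**
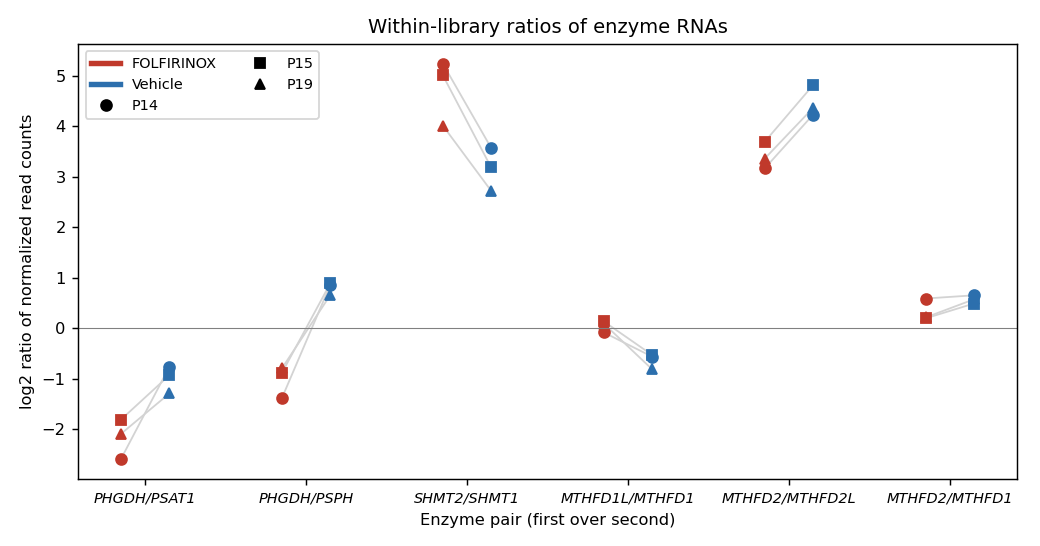
Log2 ratio of normalized read counts of 6 enzyme pairs in each library, FOLFIRINOX left of vehicle, with grey lines joining libraries of the same P number. The PHGDH ratios and MTHFD2/MTHFD2L lie lower in FOLFIRINOX, SHMT2/SHMT1 and MTHFD1L/MTHFD1 lie higher, and MTHFD2/MTHFD1 overlaps between groups.

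Of 71 genes tested on 9 lists of related genes, 29 were called lower and 6 higher, with a median log2 difference of −0.30. Without FOLFIRINOX P19 these counts were 19 and 3, and without both P14 libraries 21 and 3. The 71 include 5 proliferation genes, 4 of them called lower and 1 higher. Over all genes tested, 12.2% were called lower and 11.4% higher, the shares beside which each list count below stands. No list count was tested against these shares. The glycine cleavage system breaks glycine down in mitochondria to yield one-carbon units. GLDC, its decarboxylase, fell to 29.8 ± 11.9 normalized reads in FOLFIRINOX, against 204 ± 26.6 in vehicle (log2 difference −2.79 ± 0.32, limma adjusted p = 1.1e-04), and was 1 of 3 genes of the system tested that was called. Under the replicate block 1 gene of the system, DLD, was called higher (0.35, limma adjusted p = 0.0135). With GC trends also removed, DLD was not called (0.18, adjusted p = 0.0704). The replicate block called 3995 of all 17951 genes tested higher, the share beside which the block rises below stand too.

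Among 6 folate interconversion genes tested 2 fell and none was called higher, with 1 called higher under the replicate block. ALDH1L2, which oxidizes mitochondrial formyltetrahydrofolate, fell to 8614 ± 1119.7 in FOLFIRINOX, against 19663 ± 4196 in vehicle (adjusted p = 0.0014). Of 6 folate uptake and retention genes 3 fell: SLC19A1 (−0.83), GGH (−0.77) and FPGS (−0.64), which carry folate in or set its glutamate tail. That count was 0 without FOLFIRINOX P19, vehicle P14 or both P14 libraries, 1 without FOLFIRINOX P14 or vehicle P15, 1 with scaling to a common total and 0 with limma without its trend option.

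Of 12 purine and thymidylate synthesis genes 4 fell and 1 rose, with 2 rises under the replicate block. PFAS, a purine synthesis enzyme, fell to 699 ± 46.0 in FOLFIRINOX, against 1793 ± 360.0 in vehicle (−1.34 ± 0.19, adjusted p = 5.3e-04). ADSS1, an adenylosuccinate synthase, rose to 162 ± 23.4 in FOLFIRINOX, against 58.4 ± 15.1 in vehicle (1.48 ± 0.27, adjusted p = 0.0029). PAICS (−0.72), GMPS (−0.71) and GART (−0.49), all of purine synthesis, also fell. The number lower was 2 without FOLFIRINOX P15, without FOLFIRINOX P19, or with limma without its trend option. TYMS, thymidylate synthase, averaged 8855 ± 375 for FOLFIRINOX libraries and 9740.2 ± 971 for vehicle ones (−0.13 ± 0.15, adjusted p = 0.552). Exons of ENOSF1 and TYMSOS on the opposite strand cover 46.6% of its exonic bases.

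In the methionine cycle and transsulfuration list 2 of 11 genes tested fell, CBS and CTH, the pair that turns homocysteine and serine into cysteine. CBS fell to 107 ± 44.4 in FOLFIRINOX, against 498 ± 96.2 in vehicle (−2.26 ± 0.29, adjusted p = 2.7e-04). CTH fell to 160.3 ± 27.4 in FOLFIRINOX, against 418 ± 32.4 in vehicle (−1.39 ± 0.21, adjusted p = 8.3e-04). AHCYL2 rose (0.60), a call not made without FOLFIRINOX P15, FOLFIRINOX P19 or vehicle P14. Of 7 serine and glycine transport genes 4 fell, 2 without FOLFIRINOX P19. SFXN1, a mitochondrial serine carrier, differed by −0.62 and SLC6A9, a glycine transporter, by −0.95. SLC1A4 and SLC1A5, plasma membrane carriers of serine, alanine, cysteine and glutamine, had log2 differences of −1.52 ± 0.25 and −1.43 ± 0.19 (adjusted p = 0.0014 and 3.5e-04). Of 7 other serine-using enzymes tested 3 fell, SPTLC3 (−0.70), SRR (−0.53) and PTDSS1 (−0.51), and SPTLC1 rose (0.57). The falls numbered 0 without P15 or P19 of FOLFIRINOX or P15 of vehicle and 1 without P14 of vehicle, with neither P14, and with common-total scaling, quantile scaling or limma without its trend option. The rise was lost without P14 or P19 of FOLFIRINOX and without P14 or P15 of vehicle. It was also lost with TMM scaling, with limma without its trend option and with no filter on low values. Exons of other genes, including HNRNPA1P16 on the same strand, cover 42.8% of the exonic bases of SRR, so its value is uncertain.

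ATF4 itself fell to 16044 ± 484 in FOLFIRINOX, against 27056 ± 1051 in vehicle (−0.75 ± 0.14, adjusted p = 0.0029). Of the 14 genes on the ATF4 list 6 fell and 2 rose, with 1 rise when P14 or P19 of FOLFIRINOX, or P15 or P19 of vehicle, was left out, and with TMM scaling, limma without its trend option or edgeR. Besides ATF4, the falls were PCK2 (−2.09), EIF4EBP1 (−1.82), VLDLR (−1.28), CHAC1 (−1.23) and TRIB3 (−1.06), of which CHAC1 did not pass with neither P14 library in the fit (adjusted p = 0.105). SESN2, a sestrin that p53 also activates, rose by 1.37 ± 0.22, and DDIT3, which encodes the stress factor CHOP, by 0.70 ± 0.22. DDIT3 did not pass in edgeR (adjusted p = 0.0567), and other genes, 1 of them on the same strand, cover 39.6% of its exonic bases, so its value is uncertain. ASNS, asparagine synthetase, had 48.1 ± 3.12 in FOLFIRINOX and 77.1 ± 6.74 in vehicle (−0.67 ± 0.27, adjusted p = 0.10). Its exons are 44.6% covered by another gene on the same strand, so its low count is uncertain.

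**Figure D4:**
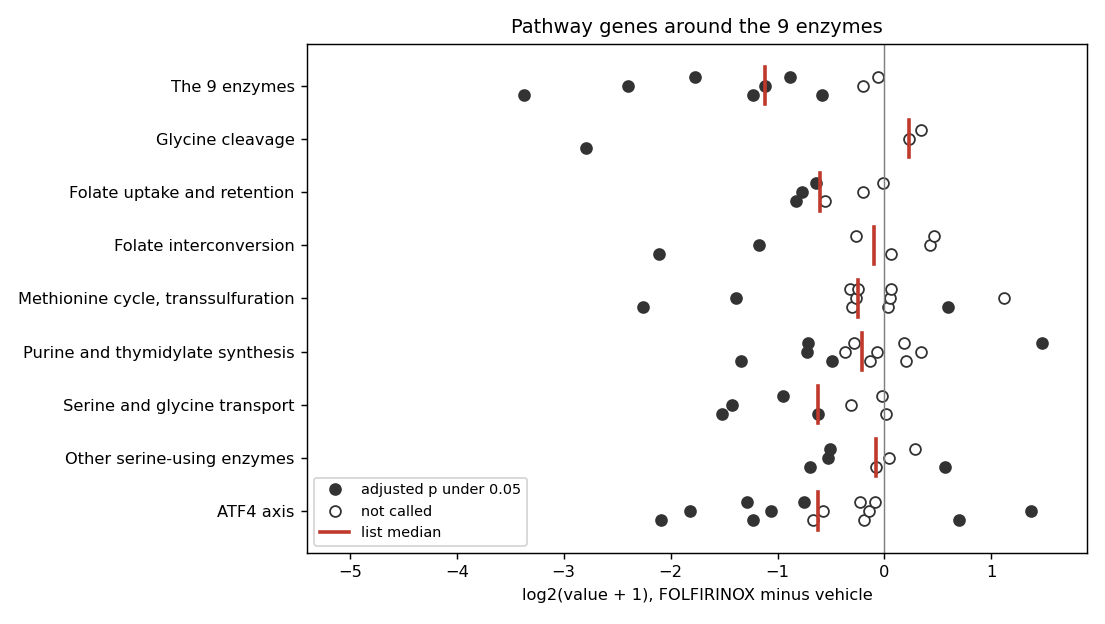
Log2 difference (FOLFIRINOX minus vehicle) of each tested gene in the 9 enzymes and in 8 lists around them, filled where limma adjusted p was under 0.05, with red bars at list medians. The 9 enzymes have a median of −1.12, while the medians of the 8 lists drawn lie between −0.62 and 0.23. The proliferation list is not drawn and had a lower median, −4.12.

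Proliferation genes moved beside these enzymes. MKI67 had 30.2 ± 6.65 normalized reads in FOLFIRINOX and 13874 ± 3569 in vehicle, and TOP2A, CCNB1 and MCM2 had log2 differences of −5.32, −4.12 and −2.34. PCNA, a replication clamp that p53 also activates, rose by 1.04 ± 0.16 (limma adjusted p = 0.0011). The part of these changes in the enzyme results was not tested. Distances to SHMT1 were taken between centred log2 profiles over the 6 libraries. The nearest genes among 12486 with a mean of 100 or more were KIF24 (0.596), MTFR2 (0.614) and EME1 (0.624). Their log2 differences were −3.23, −3.33 and −3.83. Such a profile holds the group difference itself, so log2 differences near that of SHMT1 follow from the selection.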

How the data were processed

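Polyadenylated RNA of 3 FOLFIRINOX and 3 vehicle libraries was sequenced. The submitters' processing notes name GRCh38, STAR 2.7.11b, featureCounts 2.0.6, DESeq2 and FastQC 0.12.1, with no annotation release, strand setting or model formula. The deposited table holds a library-size-normalized signal per gene and library (read counts over size factors), the authors' log2 fold changes, a Wald score and p-values. All values were whole multiples, within 0.001, of 1 read per column (100%), and read counts were recovered so. Even values made up 72.3% to 74.8% of recovered counts under 50 in each library. A recovered read may therefore not be a separate fragment, which was not tested.

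On log2(value + 1), limma 3.58.1 was fitted with its trend option to genes that reached 10 in 3 or more libraries. Calls were at 0.05 after Benjamini-Hochberg adjustment. The scale understates changes of low genes. The median SE was 0.226 (log2). edgeR 4.0.16 and DESeq2 1.42.0 on recovered counts called 1820 and 2207 genes higher and 2389 and 2297 lower, against 2047 and 2191 by limma, which gave 2684 and 1698 with scaling to a common total. Alternatives were pseudocounts, filters, scalings, GC trend removal (GC known for 96.5% of tested genes), the P number block and leaving out libraries, and, added after seeing the data, edgeR on counts divided by 2. In simulated data limma, run on 17598 genes, found 22 of the 67 genes given a 1.5-fold change, 64 of 67 with 2-fold and 66 of 66 with 4-fold, and made 7 false calls. The simulation changed few genes, none of them low, with a spread between libraries set by formula and no P number effect. Its rates therefore need not hold for these data.

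The labels hold no P numbers, and columns were mapped to their group alone. Deviations from group means correlated at 0.257, 0.282 and 0.288 for libraries of the same P number. All were above 0.1, so P numbers were taken as pairs in the paired comparisons. Other libraries correlated at −0.263 to −0.0272, but deviations cancel within each group, so negative values there go with the positive ones. The main limma calls used no pairing. Replicates differed by more than sampling noise (chi-square per degree of freedom 75.3 to 236). The members, lists and tests were chosen with earlier results of these data known. Text names all 9 members, list genes called with a log2 difference of 1 or more in size and a mean of 50 or more, 7 fixed genes, and the 3 genes nearest in profile to the most changed member. Other list genes given with a log2 difference were chosen after their values were seen. Some genes that the rule or the lists name are not reported here.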

Additional observations from a re-analysis of the deposited data

How the results depend on the processing

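Of 189 alternative values of the 9 members' log2 differences, 183 kept direction and side of the threshold or stayed uncalled, and no called difference changed sign. PSPH lost its call with common-total scaling (−0.47, adjusted p = 0.0654) and without both P14 libraries (−0.62), and its values ran from −0.63 to −0.49 with single libraries left out. MTHFD2L passed only in the replicate block fit after GC trend removal (−0.27). Leaving out single libraries gave 6 to 7 members lower. The other members' log2 differences then ran from −3.67 to −3.09 for SHMT1 and from −2.52 to −2.26 for PHGDH. Over all genes, the replicate block called 3995 higher and 3918 lower, and with GC trends removed 4147 and 4799. Without both P14 libraries the counts were 1162 and 1368, and with single libraries left out they ran from 1318 to 2218 and from 1544 to 2204. List genes called lower ran from 19 to 26 and higher from 3 to 5 with single libraries left out, and 3 were higher without both P14 libraries. TMM scaling moved the all-gene split to 1862 higher and 2401 lower, and common-total scaling to 2684 and 1698, with the median of all genes up by 0.11. The replicate block alone changed no call of a member. For the ratios, pairing gave the same differences and a sign-flip p no smaller than 0.25. The fewest reads behind a member's value were the 83 of SHMT1 in FOLFIRINOX P14.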
